A study of Saccharomyces cerevisiae with 14 samples.

Results

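The genes described are 10 genes of thiamine and vitamin B6 metabolism in the budding yeast Saccharomyces cerevisiae, out of 6470 features counted. They were taken by locus tag: SNZ1 (YMR096W), SNO1 (YMR095C), SNZ2 (YNL333W), SNO2 (YNL334C), THI4 (YGR144W), THI5 (YFL058W), THI20 (YOL055C), PHO3 (YBR092C), THI7 (YLR237W) and THI2 (YBR240C). All 10 passed the filter on low counts. The series concerns metformin, retrotransposons and chronological aging, the survival of yeast in stationary culture. Metformin is a biguanide drug used against type 2 diabetes. The 14 libraries form 4 groups: exponential cultures without metformin (n = 4) or with 50 mM metformin (n = 4), and stationary cultures without (n = 3) or with 50 mM metformin (n = 3). Every group is the same haploid MATa strain. Its genotype label reads his3D::kanMX4 and PDC1-RFP-CaURA3MX4, with can1D::STE2pr-SpHIS5 and lyp1D, further LEU2, his3D1 and ura3D0, so that the controls carry all of these alleles too. Cultures grew in SC medium at pH 4, and the labels do not state its thiamine or pyridoxine content. Precultures came from individual colonies, but the labels tie no replicate to a colony, and the p-values therefore reflect variation between libraries that could be technical.

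Vitamin B6 in its active form, pyridoxal 5'-phosphate, is the cofactor of transaminases and many other enzymes of amino acid metabolism. Yeast makes it with a synthase in which a Sno subunit releases ammonia from glutamine and a Snz subunit builds the cofactor ring. The name SNZ stands for snooze, after the accumulation of the Snz1 protein in stationary cells. Thiamine, vitamin B1, is built from a thiazole and a pyrimidine moiety. Thi4 makes the thiazole and is consumed in the reaction, since it gives up a sulfur of its own. Thi5 makes the pyrimidine from histidine and pyridoxal phosphate, which ties the pathways together. Pho3 is a secreted acid phosphatase that frees thiamine from its phosphates outside the cell, Thi7 is the high-affinity thiamine transporter, and Thi2 is a transcriptional activator of the thiamine genes.

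The SNZ and SNO genes lie in head-to-head pairs, and how alike their copies are decides which of their reads can be counted. In the R64 reference genome SNO1 lies at chrXIII:457285-457959 on the minus strand and SNZ1 at chrXIII:458408-459301 on the plus strand, with 448 bases between the coding starts. SNO2 (chrXIV:12208-12876, minus strand) and SNZ2 (chrXIV:13267-14163, plus strand) are 390 bases apart and near a chromosome end, 12207 bases from it for SNO2. The first 90 coding bases of SNZ2, the aligned stretch of SNZ1 and that of SNZ3, a further copy on chromosome VI at chrVI:11363-11452, are printed to show this. The stretches are 5' to 3', and capitals mark bases of SNZ1 that differ from SNZ2 or have no partner in it.
SNZ1: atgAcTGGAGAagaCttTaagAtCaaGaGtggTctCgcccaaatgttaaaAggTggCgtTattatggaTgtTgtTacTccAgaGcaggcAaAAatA
SNZ2: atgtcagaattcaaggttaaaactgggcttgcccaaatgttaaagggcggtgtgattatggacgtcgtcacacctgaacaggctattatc
SNZ3: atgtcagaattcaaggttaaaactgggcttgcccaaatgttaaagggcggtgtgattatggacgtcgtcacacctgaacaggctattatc
SNZ1 carried 29 such bases in 96, at chrXIII:458408-458503, whereas SNZ2 and SNZ3 were identical over this stretch. Over the whole coding sequence SNZ1 and SNZ2 shared 71.8% of aligned positions, and SNZ2 and SNZ3 shared 99.3%, with 6 of 897 bases different. Similarly, SNO1 and SNO2 shared 66.5% and SNO2 and SNO3 shared 99.7%. Of all stretches of 50 bases in the coding sequence, 77.1% in SNZ2, 86.5% in SNO2 and 85.0% in THI5 occur elsewhere in the genome, against 0% in SNZ1, SNO1, THI4, THI20 and THI2, 1.60% in THI7 and 8.71% in PHO3. HTSeq set aside reads with several equal alignments, so the levels of SNZ2, SNO2 and THI5 rest on the reads that fell on their few distinct bases and are uncertain.

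The 250 bases upstream of each coding start in these pairs are printed as a description. They are read 5' to 3' on the strand of the gene, and capitals mark TGACTC on either strand, the core of the site of Gcn4, the activator of amino acid synthesis genes.
SNZ1, chrXIII:458158-458407, plus strand: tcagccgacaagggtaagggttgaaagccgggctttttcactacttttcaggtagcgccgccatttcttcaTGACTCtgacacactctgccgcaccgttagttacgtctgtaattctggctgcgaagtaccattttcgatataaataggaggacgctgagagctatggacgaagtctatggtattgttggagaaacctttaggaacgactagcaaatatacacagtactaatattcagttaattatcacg
SNO1, chrXIII:457960-458209, minus strand: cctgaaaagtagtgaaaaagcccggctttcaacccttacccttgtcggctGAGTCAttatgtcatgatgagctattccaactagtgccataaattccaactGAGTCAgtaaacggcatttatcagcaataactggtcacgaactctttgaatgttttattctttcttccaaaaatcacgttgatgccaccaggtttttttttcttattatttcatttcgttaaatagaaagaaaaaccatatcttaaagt
SNZ2, chrXIV:13017-13266, plus strand: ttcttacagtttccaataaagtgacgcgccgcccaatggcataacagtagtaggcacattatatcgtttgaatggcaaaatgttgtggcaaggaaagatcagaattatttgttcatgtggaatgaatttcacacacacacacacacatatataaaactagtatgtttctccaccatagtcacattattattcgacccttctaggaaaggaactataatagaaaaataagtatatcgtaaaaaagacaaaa
SNO2, chrXIV:12877-13126, minus strand: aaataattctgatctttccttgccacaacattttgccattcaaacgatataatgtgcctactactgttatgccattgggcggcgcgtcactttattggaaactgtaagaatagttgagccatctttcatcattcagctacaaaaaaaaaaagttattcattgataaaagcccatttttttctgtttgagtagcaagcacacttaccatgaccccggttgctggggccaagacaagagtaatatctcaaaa
TGACTC was present upstream of 3 of the 10 genes, with its first base 179 bases before the start of SNZ1, 200 and 149 bases before that of SNO1, and 250 bases before that of THI2. Among 6001 upstream regions of the same length, 375 held it, or 6.25%. The stress response element AGGGG (18.8% of regions), the post-diauxic shift element TAGGGAT (1.38%) and the E-box CACGTG (2.73%), searched on both strands, were in none of the 10. A match describes letters in this window and shows no binding, and its part in the RNA levels was not tested. Upstream of SNZ2 and SNZ3, 248 of 250 bases were the same.

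Gene counts summed to 43897221 to 59443572 per library. Levels are given as CPM after TMM scaling, which divides counts by an effective library size chosen to centre the typical gene, and TMM factors were 1.35 to 1.52 in exponential and 0.492 to 0.744 in stationary libraries. The choice of scaling matters here: with plain library totals the median of all features stood at -1.02 (log2, stationary against exponential) without metformin and -1.22 with it, against 0.02 and -0.01 under TMM. Reads set aside as not unique were 6.11% to 6.84% in exponential libraries without metformin and 1.12% to 1.40% in stationary ones. All 7 stationary phase markers, such as the small heat shock gene HSP12, rose and all 6 markers of growth, such as RPL3, fell between the phases, with plain totals as well. STE2, the receptor of MATa cells, stood at 280 to 317 CPM in exponential controls, whereas the alpha-cell genes MFALPHA1, STE3 and SAG1 stood at 0.230 to 0.378, 3.14 to 4.36 and 13.4 to 14.3 CPM. In stationary controls STE2 was at 32.1 to 34.4 and these 3 genes were at 1.42 to 2.62, 13.0 to 17.7 and 19.2 to 22.5 CPM. The other MATa genes MFA1, MFA2, BAR1 and AGA2 had 128 to 165, 442 to 503, 95.1 to 123 and 35.0 to 37.6 CPM in exponential controls. In stationary controls they had 30.9 to 43.0, 25.4 to 38.1, 13.8 to 18.7 and 3.11 to 4.23 CPM. There AGA2 lay below STE3 and SAG1, and BAR1 lay below SAG1. The part of these mating type genes in the results was not tested. In bulk cultures fewer cells of a type and less RNA per cell cannot be told apart.

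The first question was how these genes differ between growing and stationary cells. Without metformin, the scaled levels of SNZ1 and SNO1 were far higher in stationary cultures. The thiazole synthase THI4 was 7.14-fold higher (TMM), the activator THI2 was higher, and the phosphatase PHO3 was far lower. These 5 directions held under both scalings. Both scalings give levels relative to the other counts of a library, so they do not give the amount of RNA per cell. SNZ2, SNO2, THI20 and THI7 were higher under TMM and lower with plain totals. The edgeR quasi-likelihood test called 9 genes higher and 1 lower among the 10, at an adjusted p under 0.05. Of all 6097 features tested 84.6% were called, 42.4% of the 6097 as higher and 42.2% as lower. A count of 10 of 10 is therefore close to what most genes did, and the sizes of the changes are the measurements to read. The libraries of the 2 phases did not overlap for 9 of the 10 genes, THI5 being the exception, against 83.7% of all features.

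**Figure D1:**
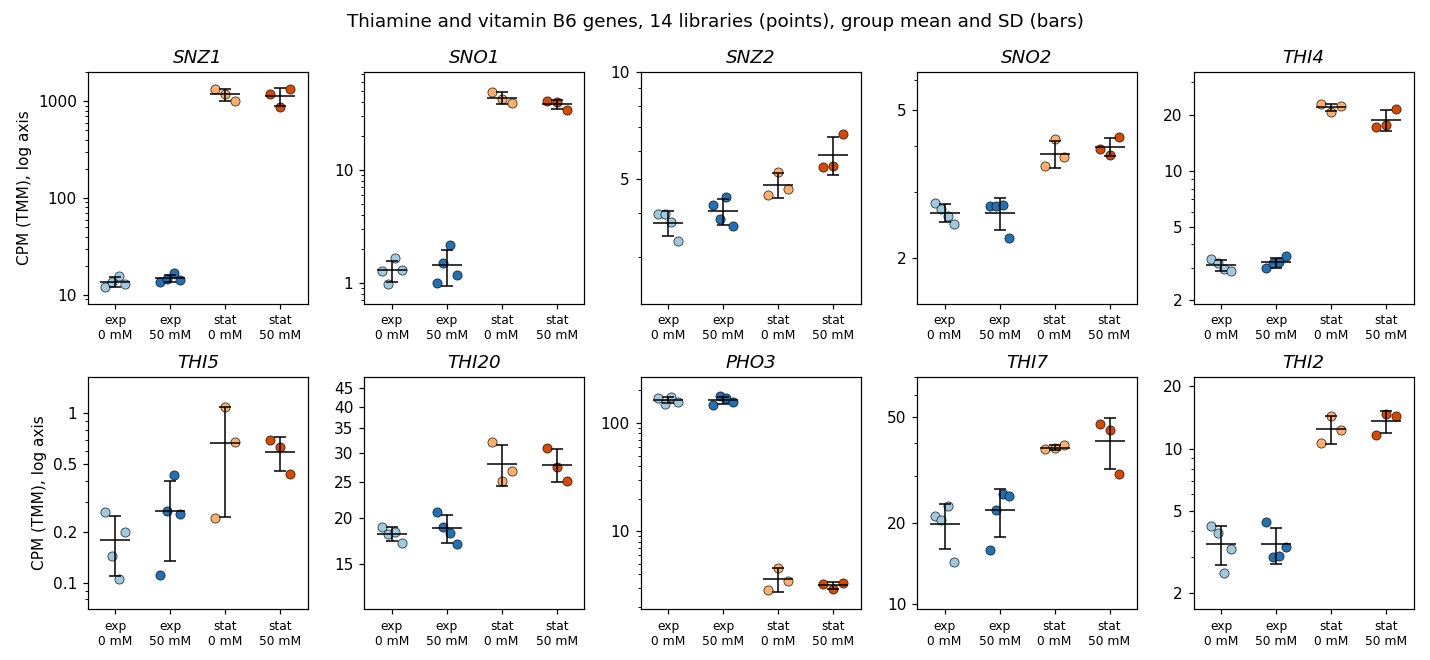
Each panel plots the TMM-scaled CPM of 1 gene on a log axis in the 14 libraries (points) by phase and metformin dose, with group means and SD (bars). SNZ1 sits between 12.1 and 16.8 CPM in all 8 exponential libraries and at 869.9 CPM or more in the 6 stationary ones, and PHO3 lies the other way.

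SNZ1, the subunit that builds the cofactor ring, had 12.1, 13.5, 15.8 and 12.9 CPM in the exponential libraries without metformin and 1337, 1174 and 1015 CPM in the stationary ones. Every stationary library lay far above every exponential one. The mean went from 13.6 ± 1.59 (SD, n = 4) to 1175 ± 161 CPM (n = 3), or 6.43 on the log2 scale (SE 0.17, adjusted p = 5.92e-13 in edgeR). That is 86.3-fold under TMM and 42.0-fold with plain totals. Of the 6097 features, 58 rose further. SNZ1 made up 0.0680% to 0.0994% of all gene counts in stationary controls.

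SNO1, the glutaminase subunit beside it, was scarce in growing cells at 1.27, 0.981, 1.65 and 1.31 CPM and stood at 49.0, 42.1 and 39.4 CPM in stationary cells. The groups did not overlap. The mean went from 1.30 ± 0.274 (SD, n = 4) to 43.5 ± 4.96 CPM (n = 3), or 5.05 on the log2 scale (SE 0.22, adjusted p = 2.45e-11), which is 33.2-fold under TMM and 16.2-fold with plain totals. 

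SNZ1 rose further than its partner. Each count of SNO1 went with 9.58 to 13.8 counts of SNZ1 in exponential controls and 25.8 to 27.9 in stationary controls. This ratio within libraries does not depend on the scaling. The log2 ratio of SNO1 to SNZ1 was lower by 1.35 in stationary cells without metformin, which is 2.55-fold, and by 1.46 with metformin, 2.76-fold. Libraries of the 2 phases did not overlap in either case. The exact permutation test gave a two-sided p of 0.0571, the smallest that 3 against 4 libraries allow, and 0.152 adjusted over 8 tests of the pairs, so this design cannot reach 0.05.

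The second pair stayed low. SNZ2, the copy of the ring-building subunit near the end of chromosome XIV, had 3.96, 3.98, 3.77 and 3.33 CPM in exponential controls and 4.50, 5.23 and 4.68 CPM in stationary controls. SNO2, its glutaminase partner, had 2.81, 2.71, 2.60 and 2.47 CPM and 3.54, 4.17 and 3.73 CPM. The stationary libraries lay just above the exponential ones for both genes. Their log2 fold changes were 0.35 (SE 0.12, adjusted p = 0.0157) and 0.52 (SE 0.12, adjusted p = 0.00122), and with plain totals -0.70 (adjusted p = 0.00076) and -0.52 (adjusted p = 0.0107). The call of SNZ2 was lost without the second stationary control library (0.28, adjusted p = 0.0773). So no direction can be given for this pair apart from its scaling.

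Between the copies the scaling drops out. SNZ1 had 3.06 to 4.20 counts for each count of SNZ2 in exponential controls and 217 to 297 in stationary controls. The ratio differed 67.5-fold between the phases without metformin and 52.4-fold with metformin. SNO1 against SNO2 differed 23.6-fold and 18.1-fold. These ratios were chosen after the data were seen, and each of the 8 tested had an exact permutation p of 0.0571, again the smallest possible, and 0.0571 adjusted over the 8. Loss of shared reads of SNZ2 and SNO2 touches these ratios, and its part in them was not tested.

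**Figure D2:**
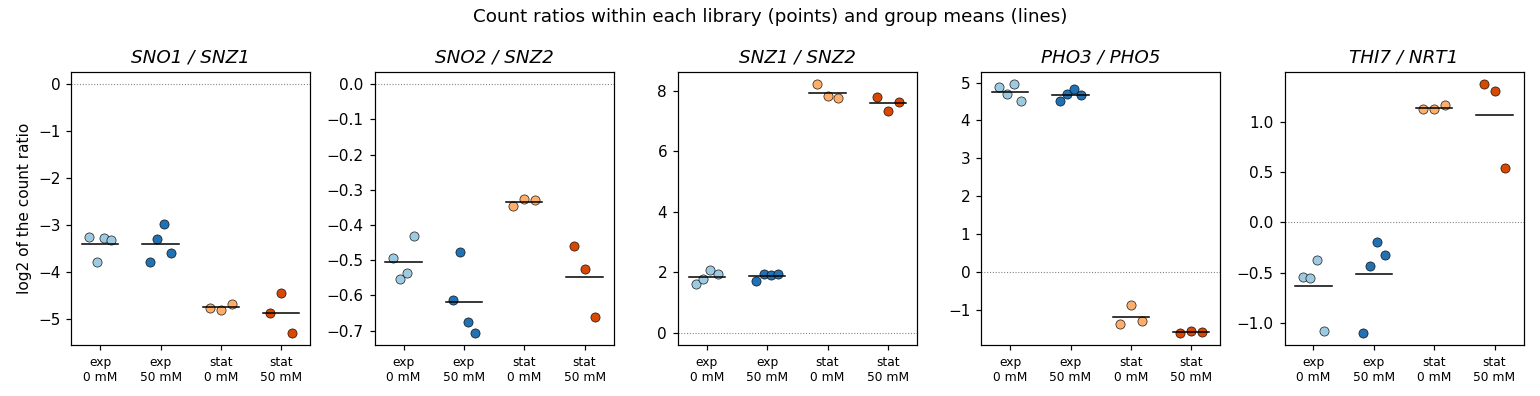
Points give the log2 ratio of the counts of 2 genes within each of the 14 libraries, by phase and metformin dose, and lines give group means. For SNZ1 to SNZ2, SNO1 to SNZ1, PHO3 to PHO5 and THI7 to NRT1 the 2 phases do not overlap at either dose. Within a phase the doses overlap in these 5 ratios except PHO3 to PHO5 and SNO2 to SNZ2 in stationary cultures.

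Thiamine synthesis genes moved less than SNZ1. THI4, the thiazole synthase, had 3.36, 3.17, 2.96 and 2.87 CPM in exponential controls and 22.8, 20.9 and 22.4 CPM in stationary controls. The 2 groups were tight and far apart. The mean went from 3.09 ± 0.219 (SD, n = 4) to 22.0 ± 1.03 CPM (n = 3), 7.14-fold, or 2.84 on the log2 scale (SE 0.10, adjusted p = 4.11e-12), and 3.47-fold with plain totals. THI20, a kinase of the pyrimidine moiety, had 18.9, 18.1, 18.4 and 17.1 CPM against 32.1, 25.3 and 26.8 CPM. It differed by 0.63 (log2, SE 0.10, adjusted p = 2.95e-05) under TMM and by -0.40 (adjusted p = 0.0345) with plain totals. Its groups did not overlap, but its direction depends on the scaling.

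THI5, the pyrimidine synthase, was barely counted, with 7 to 35 reads per library. It had 0.263, 0.144, 0.105 and 0.201 CPM in exponential controls and 0.241, 1.09 and 0.678 CPM in stationary controls. The lowest stationary library lay within the exponential range. Its log2 fold change of 1.89 (SE 0.52, adjusted p = 0.00377) passed under TMM and not with plain totals (0.82, adjusted p = 0.153).

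PHO3 went the other way, the only gene of the 10 that fell under TMM. This phosphatase had 169, 149, 172 and 157 CPM in exponential controls and 2.86, 4.60 and 3.48 CPM in stationary controls. No libraries overlapped. The mean went from 162 ± 10.6 (SD, n = 4) to 3.65 ± 0.882 CPM (n = 3), or -5.48 on the log2 scale (SE 0.15, adjusted p = 7.24e-13), which is 44.5-fold lower. With plain totals the value was -6.54. Of the 6097 features, 13 fell further. PHO3 provided 68.9% to 73.1% of the counts of the 10 genes in exponential controls and 0.191% to 0.346% in stationary controls, while SNZ1 went from 5.11% to 6.52% up to 86.9% to 89.1%.

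PHO5, a phosphate-repressed acid phosphatase, lies 446 bases from PHO3 (chrII:427698-429101, minus strand) and shares 86.5% of its coding bases. It stood at 5.98 ± 0.64 CPM (SD, n = 4) in exponential and 8.15 ± 0.634 CPM (n = 3) in stationary controls, a log2 fold change of 0.45 (adjusted p = 0.00147) under TMM and -0.60 with plain totals. PHO3 had 22.7 to 31.0 counts for each count of PHO5 in exponential controls and 0.386 to 0.542 in stationary controls. The ratio fell 61.6-fold without metformin and 76.7-fold with it.

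THI7, the transporter, had 21.3, 20.6, 23.2 and 14.3 CPM in exponential controls and 37.7, 38.1 and 39.1 CPM in stationary controls. On the log2 scale it rose by 0.95 (SE 0.19, adjusted p = 0.000273) under TMM and -0.10 (adjusted p = 0.707) with plain totals. Against its relative NRT1, a nicotinamide riboside transporter that shares 83.8% of its coding bases, its count ratio was 3.43-fold higher in stationary cells without metformin and 3.00-fold higher with metformin. THI2, the activator, had 4.21, 3.91, 2.51 and 3.27 CPM against 10.6, 14.4 and 12.3 CPM. Its groups did not overlap. It rose 3.59-fold, or 1.84 on the log2 scale (SE 0.19, adjusted p = 3.17e-07), and 1.73-fold with plain totals (adjusted p = 0.00117). 

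The phase comparison with metformin uses other libraries in both phases and gave like sizes. It called 8 of the 10 genes higher and 1 lower, against 82.6% of all features called, with 40.8% of all features higher and 41.8% lower. All 10 genes had libraries that did not overlap between the phases, against 79.8% of all features. SNZ1 rose from 14.8 ± 1.37 (SD, n = 4) to 1133 ± 238 CPM (n = 3), 76.5-fold (adjusted p = 7.74e-13), and SNO1 from 1.45 ± 0.505 to 38.2 ± 3.54 CPM, 26.0-fold (adjusted p = 4.59e-11). THI4 rose 5.87-fold (adjusted p = 1.04e-11) and THI2 rose 3.95-fold (adjusted p = 1.49e-07). PHO3 fell from 162 ± 12.9 (n = 4) to 3.16 ± 0.23 CPM (n = 3), or -5.69 on the log2 scale (adjusted p = 7.72e-13). With plain totals these 5 stood at 5.00, 3.50, 1.32, 0.77 and -6.91 on the log2 scale. THI5 did not pass (1.13, adjusted p = 0.0554) and was negative with plain totals, where it did not pass either. SNZ2 (0.53, adjusted p = 0.00107), SNO2 (0.59, adjusted p = 0.000497), THI20 (0.57, adjusted p = 7.71e-05) and THI7 (0.86, adjusted p = 0.000612) passed under TMM and were negative with plain totals, at -0.70, -0.63, -0.63 and -0.32.

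**Figure D3:**
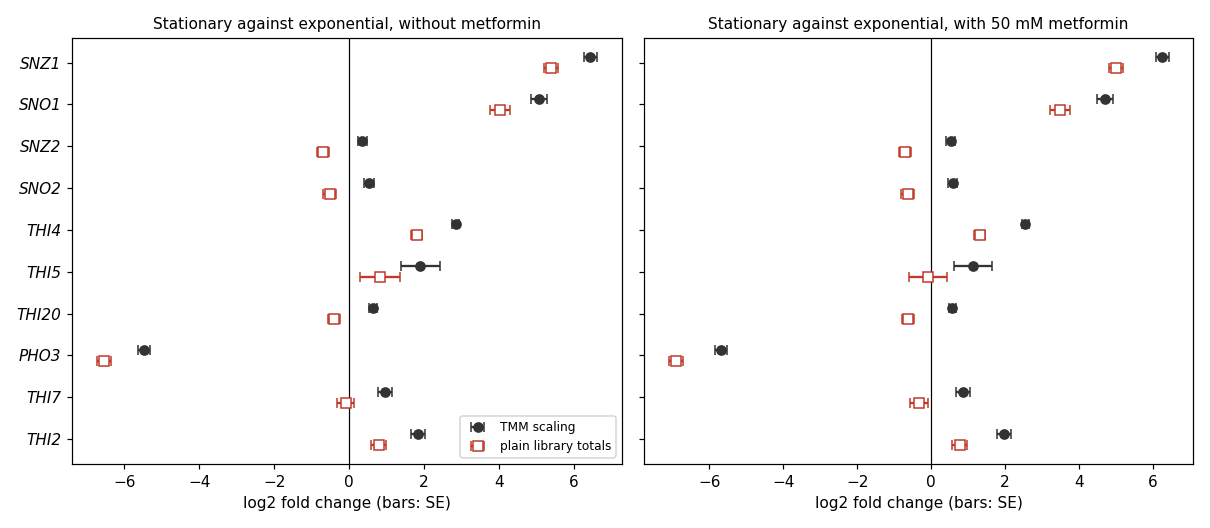
Log2 fold changes of stationary against exponential cultures with their SE (bars), without and with 50 mM metformin, under TMM (filled circles) and with plain library totals (open squares). SNZ1, SNO1, THI4 and THI2 stay right of 0 and PHO3 left of it under both scalings, while SNZ2, SNO2, THI20 and THI7 change side. THI5 changes side with metformin and stays right of 0 without it.

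The order of the genes changed in part between the phases. In controls PHO3 went from rank 1 to 9, SNO1 from 9 to 2 and THI4 from 7 to 3, and the other genes moved less. Per kilobase of coding length, PHO3 led in exponential controls at 115 ± 7.55 CPM per kilobase (SD, n = 4), followed by SNZ1 at 15.2 ± 1.78. THI7 (11.0) and THI20 (11.0) came next and overlapped, as did SNZ2 (4.19) and SNO2 (3.96), while neighbours among THI4 (3.15), THI2 (2.57) and SNO1 (1.93) overlapped too. THI5 was last at 0.174. In stationary controls SNZ1 led at 1315 ± 180 CPM per kilobase (n = 3), ahead of SNO1 at 64.4 ± 7.35. THI4 (22.5) and THI7 (21.3) overlapped, then came THI20 (16.9) and THI2 (9.21), then SNO2 (5.70) and SNZ2 (5.35), which overlapped. PHO3, at 2.60, was ahead of THI5 alone, at 0.654.

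The second question was what metformin did within a phase. None of the 10 genes passed the test in either phase. In exponential cultures 0 of 10 were called in edgeR, against 0.0984% of all features. At an unadjusted p under 0.05 were 0 of the 10, and 108 of all 6097 features. DESeq2 and limma-voom called 0 of the 10 too, and 8 and 4 of all 6097 features. The group levels of all 10 overlapped, and those of 1.33% of all features did not. SNZ1 had 13.6, 14.6, 16.8 and 14.2 CPM with metformin, a log2 fold change of 0.12 (95% interval -0.17 to 0.42). PHO3 had 147, 177, 169 and 157 CPM, at 0.01 (-0.23 to 0.24), and THI4 had 2.98, 3.17, 3.20 and 3.46 CPM, at 0.05 (-0.15 to 0.26). Each of these groups overlapped its controls. The ranges with metformin were 0.993 to 2.15 CPM for SNO1, 3.68 to 4.44 for SNZ2, 2.26 to 2.78 for SNO2, 17.0 to 20.8 for THI20, 15.9 to 25.8 for THI7 and 2.99 to 4.44 for THI2. On the log2 scale SNO1 stood at 0.16 (-0.30 to 0.62), SNZ2 at 0.11 (-0.13 to 0.34), SNO2 at -0.01 (-0.25 to 0.24), THI20 at 0.05 (-0.15 to 0.24), THI7 at 0.17 (-0.20 to 0.54) and THI2 at -0.01 (-0.39 to 0.37). THI5, with its few reads, had the widest interval, at 0.62 (-0.44 to 1.68). Of the 10 values 8 were positive, with a median of 0.08, against 52.8% positive and a median of 0.01 over all features, and between 7 and 10 were positive under the other scalings and tools.

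In stationary cultures 0 of 10 were called as well in edgeR, against 0.0492% of all features. At an unadjusted p under 0.05 there was 1, where 490 of all 6097 features were. DESeq2 and limma-voom called 0 of the 10 too, and 47 and 7 of all 6097 features. SNZ1 had 1195, 869.9 and 1334 CPM with metformin, around the controls, at -0.05 (95% interval -0.39 to 0.28, adjusted p = 0.992 in edgeR). SNO1 had 40.7, 39.7 and 34.1 CPM, at -0.19 (-0.61 to 0.24, adjusted p = 0.939). THI4 had 17.2, 17.7 and 21.5 CPM against 20.9 to 22.8 without, so that 1 library lay in the control range. Its log2 fold change of -0.23 (-0.45 to -0.01) had an unadjusted p of 0.0429 and did not pass (adjusted p = 0.598). SNZ2 had 5.41, 5.44 and 6.68 CPM, all above the controls, at 0.28 (-0.01 to 0.57, adjusted p = 0.629). It was the 1 gene of the 10 whose groups did not overlap, where 11.2% of all features had that pattern. PHO3 had 3.24, 2.90 and 3.34 CPM, at -0.21 (-0.53 to 0.12, adjusted p = 0.845). The other 5 genes overlapped their controls too. SNO2 ranged from 3.78 to 4.22 CPM with metformin (log2 fold change 0.06), THI20 from 25.3 to 30.9 (-0.01), THI2 from 11.7 to 14.8 (0.13) and THI5 from 0.440 to 0.699 (-0.15). THI7 had 46.8, 44.7 and 30.6 CPM, on both sides of the controls (0.09). Of the 10 values 4 were positive, with a median of -0.03, against 53.8% positive and a median of 0.01 over all features. With plain totals 1 was positive, where the median of all features was itself at -0.13. The intervals show how large an effect these libraries leave possible, and a missed threshold does not show that metformin had none.

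**Figure D4:**
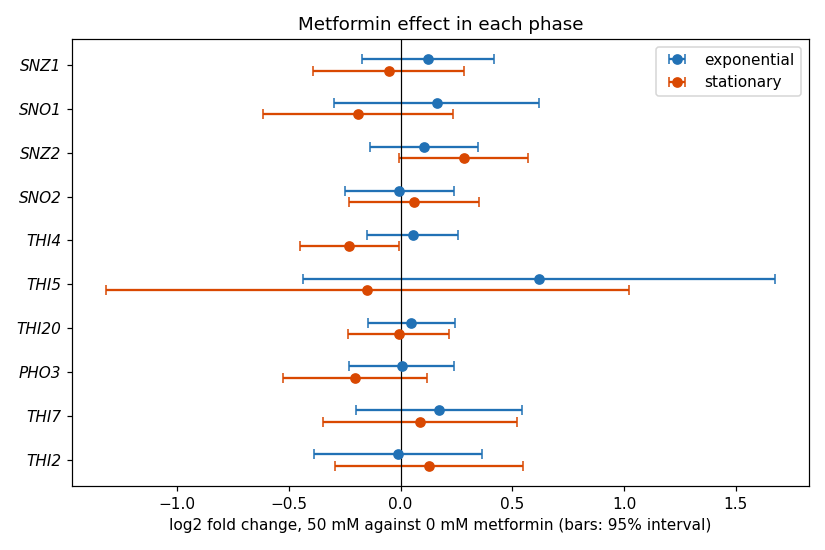
Log2 fold changes of 50 mM against 0 mM metformin in exponential and stationary cultures, with 95% intervals (bars). Intervals span 0 for all genes in both phases except THI4 in stationary cultures, at -0.45 to -0.01, which did not pass after adjustment, and THI5 has the widest.

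Whether metformin acted differently in the 2 phases was tested as an interaction. In edgeR it was not called for any of the 10 genes, against 0.0164% of all features. DESeq2 and limma-voom called 0 of the 10 too, and 12 and 1 of all 6097 features. In edgeR 0 of the 10 had an unadjusted p under 0.05. The lowest unadjusted p was 0.0627, for THI4 at -0.28 (adjusted p = 0.964). The subunit ratio of SNO1 to SNZ1 differed by 0.00 (log2) with metformin in exponential cultures (exact permutation p = 1.0) and by -0.12 in stationary cultures (exact p = 0.7). For SNO2 to SNZ2 the differences were -0.11 (exact p = 0.143) and -0.21 (exact p = 0.1, the smallest that 3 against 3 allow, 0.2 adjusted over 8 tests), with no overlap in stationary cultures.

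Other genes of both pathways were counted for comparison. Of 8 other vitamin B6 genes, 3 rose, 3 fell and 2 did not pass without metformin, and 4 rose, 3 fell and 1 did not pass with it. This split is near that of all features, of which 42.4% were higher and 42.2% lower without metformin, and 40.8% and 41.8% with it. Those that rose without metformin were SNO3, the near-identical copy of SNO2, at 0.91 (SE 0.22, adjusted p = 0.00144), the pyridoxine transporter TPN1 at 0.85 (SE 0.10, adjusted p = 1.33e-06) and YPR127W, a putative pyridoxal reductase, at 0.36 (SE 0.16, adjusted p = 0.0465). All 3 were negative with plain totals, at -0.14, -0.19 and -0.68, and with plain totals 0 of the 8 rose and 6 fell, where 1065 of all 6097 features rose and 4019 fell. SNZ3, the copy of SNZ2, stood at 0.39 (adjusted p = 0.111). Of the salvage enzymes, BUD16, a putative pyridoxal kinase, did not pass (0.19, adjusted p = 0.188), and its relative BUD17 went from 19.6 ± 0.354 (SD, n = 4) to 6.42 ± 0.634 CPM (n = 3), a change of -1.61 (log2, SE 0.09, adjusted p = 4.72e-10), and PDX3, pyridoxamine phosphate oxidase, from 99.2 ± 2.14 to 55.3 ± 5.01 CPM, a change of -0.84 (SE 0.08, adjusted p = 9.5e-08). YBL036C, a pyridoxal phosphate-binding protein, fell by 0.36 (log2, adjusted p = 0.00138).

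Of 14 other thiamine genes, 7 rose, 3 fell and 4 did not pass without metformin, and 10 rose, 3 fell and 1 did not pass with it. Among all features 42.4% were higher and 42.2% lower without metformin, and 40.8% and 41.8% with it. With plain totals the counts were 2 rises and 10 falls without metformin, where 1065 of all 6097 features rose and 4019 fell, and 1 and 10 with metformin, where 822 rose and 4292 fell. THI73, a putative permease under thiamine control, went from 2.92 ± 0.243 (SD, n = 4) to 85.6 ± 36.1 CPM (n = 3), or 4.88 on the log2 scale (SE 0.28, adjusted p = 4.88e-10, 3.85 with plain totals). THI72, a relative of THI7 with 84.1% identity, rose by 1.47 (SE 0.10, adjusted p = 5.05e-09, 0.43 with plain totals). THI12, which differs from THI5 at 7 coding bases, stood at 1.48 (SE 0.31, adjusted p = 0.000446), and at 0.44 with plain totals, which did not pass. The largest fall was that of THI80, the kinase that turns thiamine into its active diphosphate, from 22.8 ± 1.85 to 4.78 ± 0.646 CPM, at -2.25 (SE 0.15, adjusted p = 3.99e-09, -3.29 with plain totals). THI11, a further copy of THI5, fell by 0.95 (SE 0.18, adjusted p = 0.000178) and NRT1 fell by 0.81 (SE 0.07, adjusted p = 9.11e-08). The 4 genes of the THI5 family thus stood on both sides of 0, with THI13 at -0.21 (adjusted p = 0.482), and their single values are uncertain, since 60.0% to 85.0% of their 50-base stretches occur elsewhere in the genome. THI21 and THI22, relatives of THI20, stood at 1.20 and 0.52 under TMM and at 0.16 and -0.52 with plain totals. With metformin, the largest changes in this list were THI73 at 4.46, THI72 at 1.45, THI12 at 1.16 (-0.08 with plain totals), THI80 at -2.28, NRT1 at -0.72 and THI11 at -0.61. With metformin within a phase, 0 of these 22 genes passed in edgeR, DESeq2 or limma-voom. Of all 6097 features, edgeR called 6 in exponential and 3 in stationary cultures, DESeq2 8 and 47, and limma-voom 4 and 7. At an unadjusted p under 0.05 in edgeR were 0 of the 22 in exponential and 2 in stationary cultures, where 108 and 490 of all features were.

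**Figure D5:**
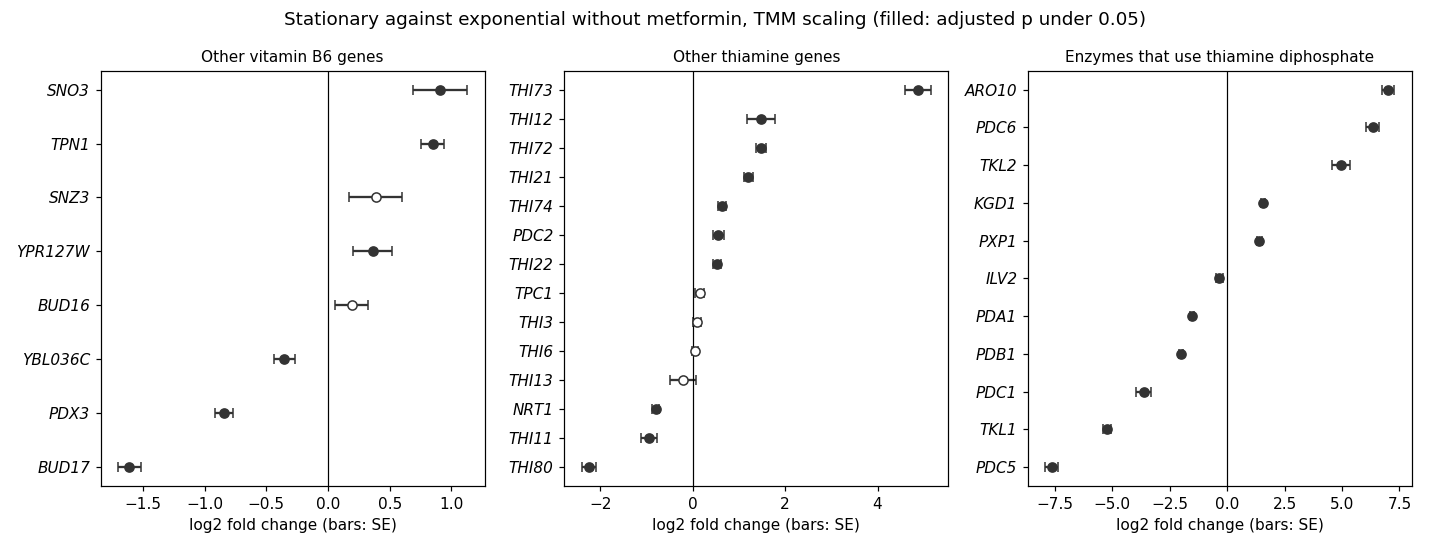
Log2 fold changes of stationary against exponential cultures without metformin under TMM, with SE (bars), for 8 other vitamin B6 genes, 14 other thiamine genes and 11 enzymes that use thiamine diphosphate. Filled points passed at an adjusted p under 0.05, and THI73, ARO10, PDC6 and TKL2 lie furthest to the right and PDC5, TKL1 and PDC1 furthest to the left.

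As a description over the 14 libraries, which share the phase difference, the genes whose log2 CPM followed SNZ1 most closely were ATG11, an autophagy scaffold, PDH1, a mitochondrial enzyme of propionate use, and CTA1, the peroxisomal catalase (Pearson r of 0.999, 0.999 and 0.998). THI4 was followed by SIR1, HBT1 and FLO10 (0.998, 0.998 and 0.997), PHO3 by ERG6, PGM1 and ADH6 (0.999 each), and SNZ2 by NUP49, FMP25 and YPL060C-A (0.948, 0.932 and 0.931). All partners named here have the highest r among 5846 genes, and how high r gets by such a search alone was not tested. After subtracting the group means, which removes phase and metformin, SNZ1 was nearest to GCV3, a subunit of glycine cleavage (0.921), SHP1 (0.883) and MRS3 (0.880). SNZ2 was nearest to HXT9 (0.832), its near-identical copy SNZ3 (0.823) and YBL071C-B (0.811). THI4 was nearest to ROG3 (0.859), YKL097C (0.835) and THI21 (0.785), and PHO3 to FUS1 (0.864), TOS4 (0.849) and ERG6 (0.834). Among the 10 genes themselves these deviations correlated highest for SNZ2 with SNO2, at 0.804, against 0.411 for SNZ1 with SNO1, and lowest for SNO1 with THI2, at -0.714.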

How the data were processed

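The authors deposited a table of raw counts per feature, with reads from directional ribodepleted libraries which the submitters' processing notes say were handled with STAR, SAMtools and HTSeq. Their versions, the build and the strand setting of the counting were not given in the sources used. All 6470 features matched the R64 RefSeq annotation, used for names, positions and sequences. The 5 HTSeq summary rows (6.12% to 10.1% of reads) were left out. Of the features, 6097 passed filterByExpr (minimum count 10, minimum total 15). edgeR 4.0.16 in R 4.3.3 fitted all 14 libraries with TMM and group as the term, and its two-sided quasi-likelihood test was adjusted by Benjamini-Hochberg over all tested features, with a threshold of 0.05. SE and 95% intervals come from the F statistic. Intervals cover the spread between libraries and no mapping error. Count ratios were compared by exact two-sided permutation tests (scipy 1.17.1). Coding sequences were aligned with Biopython 1.88. The fit was also run on simulated data, and no result given here rests on that run.

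The members, lists and tests were chosen with earlier results of these data known. All members are named in every comparison. Of the other lists, genes called with metformin and the 3 largest rises and 3 largest falls called between phases are named, besides close paralogs. Likeness uses log2 CPM with a prior count of 2. The titles number stationary replicates 1, 2 and 3, and the columns 1, 2 and 5. The labels give 1 batch. Within a phase, deviations of same-numbered libraries correlated at 0.302, 0.103, 0.624 and 0.232 (exponential) and 0.259, 0.136 and 0.467 (stationary). Libraries of the same number correlated best with each other only for exponential 3 and 4 and stationary 3. The replicate numbers may pair samples within a phase, but the data show it for these numbers only and the labels do not state it. Across phases, correlations were -0.033, -0.0592 and -0.0516 without and 0.151, 0.261 and 0.216 with metformin. Across phases each same-numbered library with metformin correlated best with its own number, and those without metformin did not. Alternatives were RLE size factors, plain totals, no filter, DESeq2 1.42.0, limma-voom (limma 3.58.1), the compared groups alone, a replicate block and leaving out each library.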

Additional observations from a re-analysis of the deposited data

Results flagged for a closer look

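SNO2, the glutaminase subunit of the second pair, had 2.26 CPM in the fourth exponential library with metformin, below 2.75 to 2.78 CPM in the other 3 libraries of that group. The gap was 0.954 of the group's range. Of 20 groups of 4 libraries examined this was the 1 that stood out, and chance marks about 1 in 20.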

How the results depend on the processing

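Scaling mattered most. With plain library totals 4 of the 10 genes rose and 4 fell in each phase comparison, against 9 and 1 without metformin and 8 and 1 with it under TMM. Of all 6097 features, 1065 rose and 4019 fell with plain totals without metformin, and 822 rose and 4292 fell with it. The reversed log2 fold changes were -0.70 for SNZ2, -0.52 for SNO2, -0.40 for THI20 and -0.10 for THI7 without metformin, and -0.70, -0.63, -0.63 and -0.32 with metformin. THI5 lost its call without metformin (0.82, adjusted p = 0.153), and with metformin it was negative with plain totals and passed under neither scaling. With metformin THI5 passed in DESeq2 (1.16, adjusted p = 0.0410), in limma-voom (1.24, adjusted p = 0.0452), with the compared groups alone (1.11, adjusted p = 0.0463), and without exp_metformin 3 (1.47, adjusted p = 0.0203), stat_control 1 (1.12, adjusted p = 0.0298) or stat_control 2 (1.12, adjusted p = 0.0474). SNZ2 lost its call without stat_control 2 (0.28, adjusted p = 0.0773). The cause was not tested. With the replicate block 0 of the 10 genes passed in either metformin comparison or the interaction, and 9 rose and 1 fell without and 8 rose and 1 fell with metformin between phases, as in the fit without it, so the block changed no call among the 10. Leaving out 1 library, the metformin difference in the log2 ratio of SNO1 to SNZ1 ranged from -0.15 to 0.12 in exponential and from -0.33 to 0.0885 in stationary cultures. Metformin values that passed in no fit changed sign in 15 of 140 fits without a library and 5 of 70 others in exponential cultures, and in 8 of 140 and 5 of 70 in stationary cultures, and interaction values in 4 of 140 and 3 of 60. Depth limits THI5, with 7 to 35 counts per library, and shared sequence limits SNZ2, SNO2 and THI5.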

Other observations

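Enzymes that use thiamine diphosphate, the active form of the vitamin, include relatives with large changes in opposite directions between the phases. Of 11 listed, 5 rose and 6 fell without metformin, and 5 rose, 5 fell and 1, the acetolactate synthase ILV2 at -0.24, did not pass with it. This even split is near that of all features, of which 42.4% were higher and 42.2% lower without metformin, and 40.8% and 41.8% with it. With the replicate block ILV2 passed as well, at -0.25 (adjusted p = 0.0460 in edgeR), so that 6 fell. The phenylpyruvate decarboxylase ARO10 rose from 2.10 ± 0.171 CPM (SD, n = 4) to 271.6 ± 59.6 CPM (n = 3), or 7.01 on the log2 scale (SE 0.27, adjusted p = 7.29e-12 in edgeR). The minor pyruvate decarboxylase PDC6 rose by 6.34 (adjusted p = 4.22e-11) and the minor transketolase TKL2 by 4.95 (adjusted p = 1.75e-08). Their relatives of growing cells fell. PDC5 went from 1413 ± 384 (n = 4) to 7.06 ± 1.09 CPM (n = 3), or -7.64 on the log2 scale (adjusted p = 4.53e-12), and the transketolase TKL1 stood at -5.24 (adjusted p = 1.23e-12). PDC1, the main pyruvate decarboxylase and the locus tagged with a fluorescent protein in this strain, stood at -3.64 (adjusted p = 5.72e-08). With plain totals 4 rose and 6 fell without metformin, where 1065 of all 6097 features rose and 4019 fell. ARO10 then stood at 5.98, PDC6 at 5.31 and TKL2 at 3.91. With metformin ARO10 stood at 7.03, PDC6 at 5.61, TKL2 at 4.66, PDC5 at -7.60, TKL1 at -5.39 and PDC1 at -3.86. Within a phase, 0 of the 11 passed with metformin in edgeR, DESeq2 or limma-voom. Of all 6097 features, edgeR called 6 in exponential and 3 in stationary cultures, DESeq2 8 and 47, and limma-voom 4 and 7. In edgeR 0 of the 11 had an unadjusted p under 0.05, where 108 and 490 of all features did. So 0 of 11 is near what most features did.

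In stationary cultures 2 other thiamine genes had an unadjusted p under 0.05 with metformin and did not pass, THI6 at 0.19 (adjusted p = 0.413 in edgeR) and THI13 at 0.67 (adjusted p = 0.604). That is 2 of 14 genes, where 490 of all 6097 features had such a p.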
